A study of Mus musculus with 4 samples.

Results

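The Glo1 segment is a stretch of 900 kb of mouse chromosome 17, from 30.1 to 31 Mb in mm10, that holds 4 of the 151 differential H3K4me3 peaks of the deposited list. The members are every listed peak that lies wholly between these borders, whatever its fold change (FC), and they fell at the start of Btbd9, at the start of Glo1, within Dnah8 and at the start of Glp1r. All 4 were listed as higher in ovaries exposed to chlordecone (CD), an organochlorine insecticide, with an FC of 1.98 at Btbd9, 2.05 at Glo1, 1.95 at Dnah8 and 2.81 at Glp1r. The segment was chosen by the position of these peaks and by their presence in a list of changed peaks. Their direction and size are therefore given as a description, with no test.

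H3K4me3, trimethylation of lysine 4 on histone H3, was measured by chromatin immunoprecipitation and sequencing (ChIP-seq) in adult ovaries of Swiss mice, a stock that is kept outbred. Exposure covered E6.5 to E15.5 of embryonic development, when pregnant females of both groups were gavaged with 150 µl of olive oil. For the CD group the oil carried CD at 100 µg/kg/day, and for the control group it carried none, so that the vehicle was common to both groups. There were 2 CD and 2 control samples of the daughters' ovaries, and each sample pooled 2 ovaries from different animals. The deposited list gives a position and 1 signed FC of CD over control for each peak. Neither values of single samples nor p-values nor unchanged peaks are in it, so each FC below is the authors' deposited value, and the depth and the spread between replicates behind it are unknown.

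H3K4me3 is laid down at the starts of active and poised genes, most strongly where the start lies in a stretch rich in CpG dinucleotides. Glo1 encodes glyoxalase 1, which carries out the first step in the glutathione-dependent removal of methylglyoxal, a reactive by-product of glycolysis. Btbd9 encodes a BTB-domain protein that acts as an adaptor for Cul3 ubiquitin ligases, Dnah8 encodes a heavy chain of the axonemal dynein that drives the beating of sperm tails, and Glp1r encodes the receptor for the incretin hormone GLP-1. In laboratory mice Glo1 is also known for a tandem duplication that some strains carry and others lack, and that takes in Glo1 together with neighbouring genes, among them Dnah8, Glp1r and Btbd9, in whole or in part.

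The peaks at Glo1 and Glp1r span the promoter, so the bases before these starts are shown, with CG dinucleotides in capitals. The Glo1 sequence is the 250 bases before the start at 30612659, read from the minus strand (chr17:30612660-30612909). The Glp1r sequence is the 200 bases before the start at 30901817, on the plus strand (chr17:30901617-30901816). Both are from the RefSeq promoter windows of GRCm38.p6, the same build as mm10, in which 3 of the 4 genes had an entry.
Glo1 promoter: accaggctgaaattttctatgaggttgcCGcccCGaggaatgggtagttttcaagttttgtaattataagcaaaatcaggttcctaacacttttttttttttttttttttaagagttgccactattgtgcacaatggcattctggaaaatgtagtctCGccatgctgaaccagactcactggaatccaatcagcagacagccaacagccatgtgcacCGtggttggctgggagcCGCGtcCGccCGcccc
Glp1r promoter: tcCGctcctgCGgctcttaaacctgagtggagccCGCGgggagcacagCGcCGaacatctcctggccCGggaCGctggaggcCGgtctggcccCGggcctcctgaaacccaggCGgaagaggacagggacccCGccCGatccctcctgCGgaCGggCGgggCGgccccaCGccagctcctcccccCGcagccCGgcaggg

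The Dnah8 peak is not at the promoter but in the body of the gene. The bases between the start of Dnah8 at 30626935 and that of the antisense transcript 1700097N02Rik at 30626905, which have no listed peak, are shown first (plus strand, chr17:30626906-30626934, from the RefSeq window). The bases of the peak that lie in the exon with the start codon are shown beneath them (plus strand, chr17:30635542-30635833, from the GRCm38 genome).
Dnah8 between divergent starts: aaCGgctgagccacCGcccaacttccttt
Dnah8 coding bases of the peak: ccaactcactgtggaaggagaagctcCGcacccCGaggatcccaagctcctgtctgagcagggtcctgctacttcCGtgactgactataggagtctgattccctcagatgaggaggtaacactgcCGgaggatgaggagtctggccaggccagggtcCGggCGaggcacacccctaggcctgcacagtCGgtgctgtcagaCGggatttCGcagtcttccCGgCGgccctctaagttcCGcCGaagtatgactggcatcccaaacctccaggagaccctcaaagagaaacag

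The capitals show where the sequences differ. The Glp1r promoter stretch held 20 CG in 200 bases and had a GC content of 75.0%, whereas the Glo1 stretch held 8 CG in 250 bases at 46.4%. The coding bases of the Dnah8 peak held 13 CG in 292 bases at 59.6%, and the 29 bases between the divergent starts held 2 CG at 58.6%.

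The Btbd9 peak lies from 30575059 to 30577498 on chromosome 17 and is 2440 bp wide. Btbd9 is read from the minus strand, and all 6 protein-coding starts in the peak lie between 30576169 and 30576488. The peak reached 1010 bp upstream of the outermost of these starts and 1429 bp into the gene, where it covered untranslated exon (14.1% of the peak) and intron (44.6%), but no coding sequence. It also held the start of the antisense transcript AC165962.1. The peak carried 157 CpG, the highest number among the 4, with an observed over expected ratio of 0.83. The listed FC was 1.98, or 0.99 on the log2 scale.

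The Glo1 peak lies from 30611268 to 30613120, is 1853 bp wide and holds 3 protein-coding transcripts that begin at 2 distinct positions, 30612602 and 30612659. Glo1 is also read from the minus strand. The peak began 461 bp upstream of the start at 30612659 and ran 1391 bp into the gene, with 4.53% of its bases in coding exon, 13.2% in untranslated exon and 82.3% in intron. None of its bases lay outside the gene, because GENCODE lists a further Glo1 start 14.21 kb upstream, at 30626871. It held 56 CpG with an observed over expected ratio of 0.50. The listed FC was 2.05, or 1.03 on the log2 scale, and the peak lay 33.8 kb from that of Btbd9.

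The Dnah8 peak lies from 30635542 to 30636023, is 482 bp wide and was the only one of the 4 without a protein-coding start inside. The nearest protein-coding start, of Dnah8 itself, is 8551 bp away at 30626991. Coding sequence made up 77.6% of the peak, 292 bp in the exon with the start codon and 82 bp in the next exon, and the other 22.4% was the intron between them. The peak began 176 bp after the first coding base. The only annotated start inside was that of an incomplete transcript, Dnah8-211, at 30635756. The peak held 17 CpG and its listed FC of 1.95 was the lowest of the 4.

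The Glp1r peak lies from 30901212 to 30902232, is 1021 bp wide and contains the single protein-coding start of Glp1r, at 30901817 on the plus strand. It reached 605 bp upstream and 415 bp into the gene, and 59.3% of it lay outside the gene, 5.88% in untranslated exon, 7.64% in coding exon and 27.2% in intron. Its GC content of 63.9% was the highest of the 4, and it held 51 CpG. Its listed FC of 2.81, or 1.49 on the log2 scale, stood above those of the other three, and it was also the most distant, 265.2 kb from the Dnah8 peak.

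**Figure D1:**
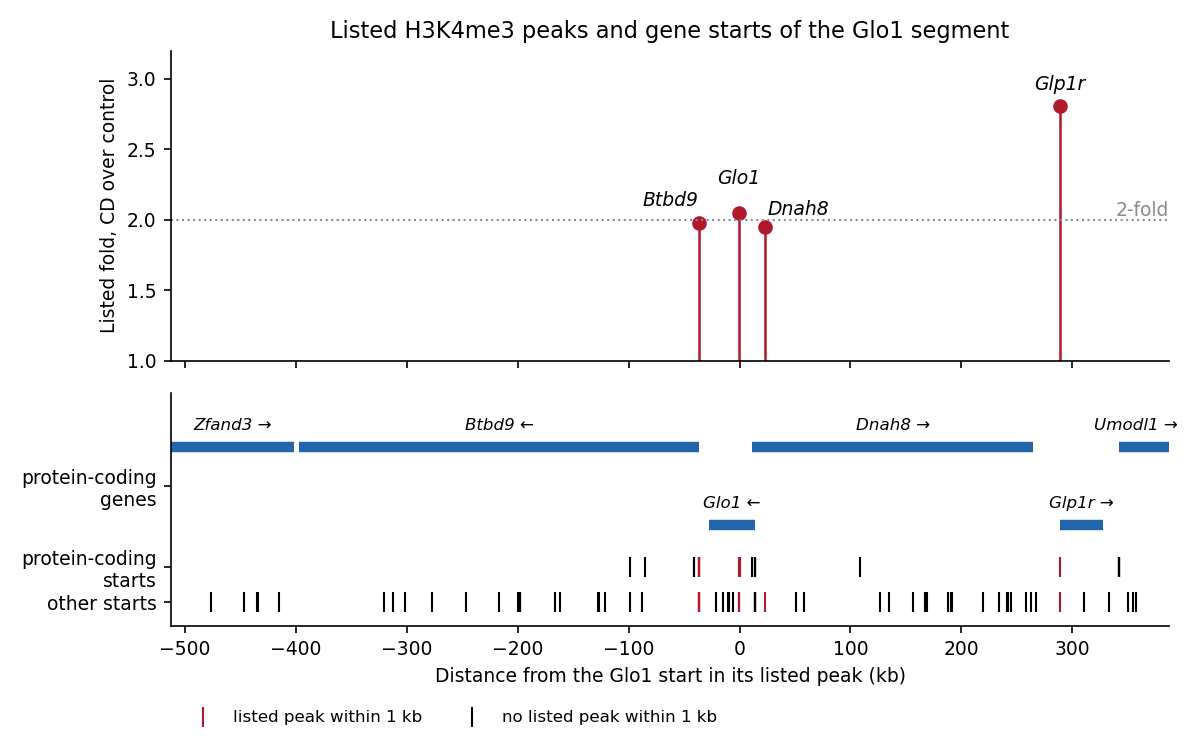
Position and listed fold of the 4 peaks, plotted by distance in kb from the Glo1 start in its peak. In the upper panel the vertical axis is the authors' FC of CD over control, drawn from 1, with a dotted line at 2. In the lower panel blue bars are protein-coding genes with their direction of reading and ticks are annotated starts, red with and black without a listed peak within 1 kb. The peaks at Btbd9, Glo1 and Dnah8 sit close to the line at 2 and to each other, and the Glp1r peak sits higher and farther away.

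The shared fold rested on 3 peaks. Btbd9, Glo1 and Dnah8 had FC values whose highest was 1.05 times the lowest, and none was more than 0.0521 from 2, which is the ratio that a doubling of the number of copies would give. With Glp1r the highest was 1.44 times the lowest, and Glp1r was 0.806 away from 2. The span from the first base of the Btbd9 peak to the last base of the Glp1r peak was 327.2 kb. The gene content of this span, Glo1, Dnah8, the promoter of Glp1r and the promoter end of Btbd9, overlaps that of the known duplication, but the borders of the duplication in mm10 are not given in the sources used here, so no lengths were compared. Copy number was not measured in the file, and no genotype of the animals is given in the sources used here. From the list alone, more copies of the segment in the CD samples and more H3K4me3 for each copy cannot be told apart, and whether the samples differ in copy number was not tested. More cells that carry the mark and more mark in each cell cannot be told apart either in such bulk tissue.

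Both flanks of the segment were free of listed peaks over several megabases. The nearest listed peak before the segment was at Eci1 (24427702 to 24427880, 179 bp, FC 1.74), 6.15 Mb from the Btbd9 peak. The nearest after it was at H2-T23 (36031753 to 36031879, 127 bp, FC 1.68), 5.13 Mb from the Glp1r peak. Eci1 encodes an enzyme of fatty acid oxidation and H2-T23 a non-classical MHC class I molecule. Both of these distant peaks were narrower than any of the 4 and had lower FC values.

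Several starts of the segment had no listed peak, although other starts of the same genes did. Of 21 distinct protein-coding starts in the segment, 9 lay within 1 kb of a listed peak and 12 did not. Counted by gene, 3 of 5 protein-coding genes with a protein-coding start there had a listed peak within 1 kb of one, against 44 of 21866 (0.201%) in the whole annotation, a share that the choice of the segment fixes and from which nothing is read. The 3 are Btbd9, Glo1 and Glp1r. Among genes of any type, 5 of 27 had a listed peak within 1 kb of a start, and the additional 2 were AC165962.1, which shares the Btbd9 peak, and Dnah8, through its incomplete transcript.

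The absence was most visible between the Glo1 and Dnah8 peaks. There 5 protein-coding starts, 4 of Dnah8 from 30624354 to 30626991 and the outer start of Glo1 at 30626871, are crowded into a few kilobases and the listed peak nearest to any of them, that of Dnah8, was 8551 bp away. These starts lie in sequence that occurs more than once. In windows that reached 500 bp to both sides of a start, 73.2% of all 50-mers at the Dnah8 start at 30624354 and 77.9% at the outer Glo1 start were found at another place in the genome, and the 77.9% at Glo1 all had a copy within the segment itself. The Dnah8 starts at 30624354 and 30626935 are 2.58 kb apart. A 50-bp read from such sequence, the read length used, has no single place, and how reads with several places were treated is not given in the sources used here. The part of this in the absence of a listed peak was not tested.

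The other protein-coding starts without a listed peak had far less of such sequence. The highest share of 50-mers found elsewhere among them was 7.46%, at the Btbd9 start at 30527351, above the 3.89% at the Glo1 starts with a listed peak. At Umodl1, whose protein is a uromodulin-like membrane protein, both starts (30954640 and 30954679) lay 52408 and 52447 bp beyond the Glp1r peak, with 0% of their 50-mers found elsewhere. Within Btbd9, starts at 30571830 and 30571846 lay 3229 and 3213 bp from the Btbd9 peak. Incomplete transcripts of Btbd9 (30513675 and 30527351) and Dnah8 (30721041) gave the other three, at least 47708 bp from a listed peak. The main start of Zfand3, which lies next to Btbd9, is outside the segment at 30004733. Because unchanged peaks are not in the list, a start without a listed peak may carry H3K4me3 at the same level in both groups, may have missed a threshold or may carry none, and these cannot be told apart.

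Among the protein-coding starts, those with a listed peak were also the ones with more CpG. In the same windows, the observed over expected CpG ratio was 0.94 to 0.98 at the 6 Btbd9 starts, 0.56 and 0.58 at the 2 Glo1 starts and 0.51 at Glp1r. It was 0.405 or lower at all 12 protein-coding starts without one, and these ranges did not overlap. Starts of other transcripts did not follow this order, with 0.58 at Gm24661 without a listed peak and 0.485 at Dnah8-211 inside one. The starts are not independent points, because those close together share much of their window. The 9 protein-coding starts with a listed peak belong to only 3 genes, so the order rests on few places. Across 21853 protein-coding genes the median was 0.55, so Glo1 and Glp1r were near the middle and Btbd9 was near the top, with 2.59% of genes as high as its outermost start. The 3 bins of 1 kb with the most CpG in the segment fell in the peaks of Btbd9 (102 CpG), Glp1r (47) and Glo1 (43). The bin with the next highest count, 41 CpG from 30208001 to 30209000 within Zfand3, had no listed peak.

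**Figure D2:**
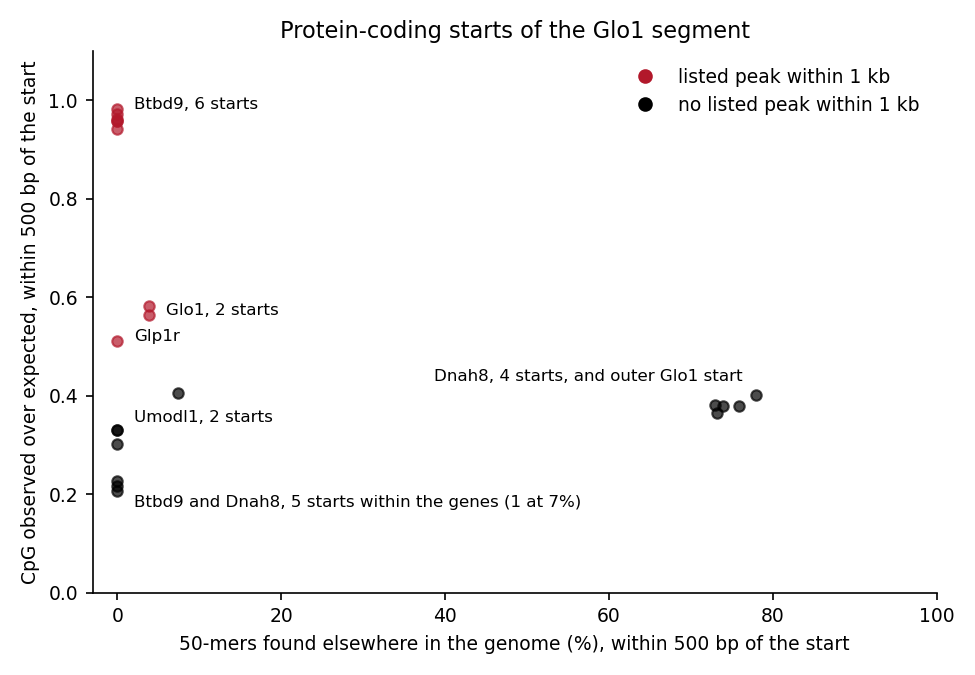
Sequence around the 21 distinct protein-coding starts of the segment. The horizontal axis gives the percentage of 50-mers within 500 bp of the start that occur elsewhere in the genome, the vertical axis the observed over expected CpG ratio, and each point is a start, red with and black without a listed peak within 1 kb. The red points lie at 0.51 or above and at 3.89% or below, and the 5 black points of Dnah8 and the outer Glo1 start lie far to the right, up to 77.9%.

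Within the peaks themselves little sequence was repeated, as in most other listed peaks. Of 5600 50-mers in the 4 peaks, 37 (0.661%) occurred elsewhere in the genome, against 6.52% of 40079 in the other listed peaks and 4.13% of all 50-mers of the segment. The share in the 4 peaks depended on the setting, with 1.15% for 36-mers, 0% for 100-mers and 2.17% with 250 bp added on both sides. No such values were taken for the other peaks. The share in the other peaks came from a minority of them, since their median was 0% and 46 of 147 had more than 10%. All 37 were in the Glo1 peak, between 30612478 and 30612613, a stretch that includes the start at 30612602. They made up 2.05% of that peak, and the peaks at Btbd9, Dnah8 and Glp1r had none. The reference sequences scanned, without patches and alternate loci, thus hold 1 copy of nearly all of this sequence, which says nothing about the copies carried by the mice.

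The promoters differed in their motifs. In the 250 bases before the RefSeq start, both strands searched, the GC box GGGCGG was found 3 times at Glo1, where the matches at 11 and 7 bases before the start overlap. RefSeq places the Glp1r start at 30901867, 50 bases beyond the GENCODE start at which the sequence shown above ends. Before that RefSeq start the GC box was found 3 times, at 119, 97 and 92 bases, the last 2 overlapping, and all of them lie in the sequence shown. It was found once at Dnah8, at 17 bases. This motif is in 42.6% of 21263 promoters of the same length. A CCAAT box was found at Glo1 only, 65 bases before the start, and is in 35.4% of promoters. The TATA box TATAAA (11.6% of promoters), the core of the antioxidant response element (10.4%) and the oestrogen response element (0.05%) had no match at these 3 genes, which says only that those letters are not in these windows. At least as many CG as the 26 in the RefSeq window of Glp1r, which reaches past the 200 bases shown, were in 12.4% of promoters, as the 13 at Dnah8 in 42.4% and as the 8 at Glo1 in 55.6%. GC boxes contain CG, so these counts are not independent.

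Set against the whole list, the peaks at Btbd9 and Glo1 stood out more by width than by fold. All 4 peaks of the segment were higher in CD, as were 135 of the 151 listed peaks (89.4%), so their direction is that of most of the list. Their median FC was 2.01, against 1.82 for the 131 other peaks higher in CD. Of those 131, 52 had an FC at least as high as Dnah8, 16 at least as high as Glp1r, and 10 lay within the range of Btbd9, Glo1 and Dnah8. Their median width was 1437 bp, against 127 bp for the 147 other peaks. The Btbd9 peak was the second widest of the list and the Glo1 peak the third, whereas by width Glp1r ranked 17 and Dnah8 32. A protein-coding start lay inside 3 of the 4, against 8 of 147 other peaks (5.44%), most of which are far narrower. Starts near a peak were more common, since 48 of the 151 listed peaks lay within 1 kb of one, among them the same 3 of the segment. Of the 14 other peaks of at least 1 kb, those at H60b, Slfn8, Akr1e1, Adipor2 and Pianp also held a start inside and the rest did not. These are descriptions of peaks chosen from the same list, with no test.

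Other wide peaks had folds both below and above those of the segment. All 17 listed peaks of at least 1 kb were higher in CD. The 14 outside the segment had a median FC of 1.69, from 1.53 to 26.1, and 6 of them were at least as high as Dnah8.

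**Figure D3:**
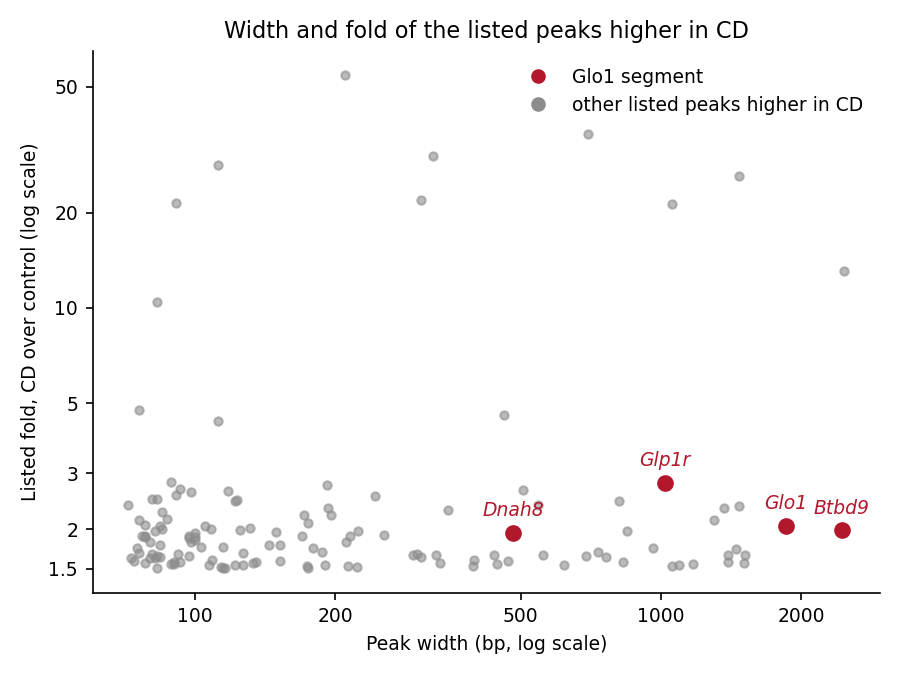
Width in bp (horizontal, log scale) and listed FC (vertical, log scale) of the peaks higher in CD, leaving out values above 100. Red points are the 4 peaks of the segment and grey points all others. Btbd9 (2440 bp) and Glo1 (1853 bp) lie at the wide end at an FC near 2, where grey points are few, whereas other peaks near that FC are mostly narrower.

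The list has 5 other runs in which at least 4 peaks fall within 1 Mb, and their values are set beside those of the segment. The ratio of the highest to the lowest FC in a run depends on the number of peaks and, for runs close to the list's threshold of 1.5, on that threshold, so the ratios are a description and not a measure of likeness. At the interferon-inducible genes Ifi204, Mndal and Ifi211 on chromosome 1, 5 peaks had FC values from 1.51 to 1.68, a highest-to-lowest ratio of 1.11, and at H2-T23 to Gm8909 on chromosome 17 the 4 peaks had FC values from 1.56 to 1.88, a ratio of 1.21. The ratio was 1.44 for the 4 peaks of the Glo1 segment and 1.05 for Btbd9, Glo1 and Dnah8, which were picked out of the 4 after their values were seen. The ratio was 2.19 over the 4 peaks at Mrps24 and Ykt6 on chromosome 11 and 4.17 at Def8 on chromosome 8, where 1 value above 100 was set aside. In the run from Tmem181a to Rnaset2b on chromosome 17, 11 peaks were higher and 3 lower, and the ratio among the higher ones was 1.71.

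The Glo1 segment differed from those runs in its peaks. Its median width of 1437 bp compared with 115 to 325 bp in the other runs. Wide peaks were not confined to it, since the Def8 run also held peaks of 2470, 1472 and 1055 bp among narrower ones. The segment was the only run of the 6 in which any peak held a protein-coding start inside. Peaks of other runs lay just beside one, however, at 22 bp for Dynlt1c, 45 bp for Tmem181a and 61 bp for Gm8909. All 4 peaks from H2-T23 to Gm8909 were within 1 kb of a protein-coding start, so being at a start was not particular to the segment. The share of 50-mers found elsewhere was 0.661% in the segment, 35.5% in the run from Tmem181a to Rnaset2b, 13.8% at H2-T23 to Gm8909, 6.41% at Def8, 3.58% at Mrps24 and Ykt6 and 0% at the Ifi204 run.

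**Figure D4:**
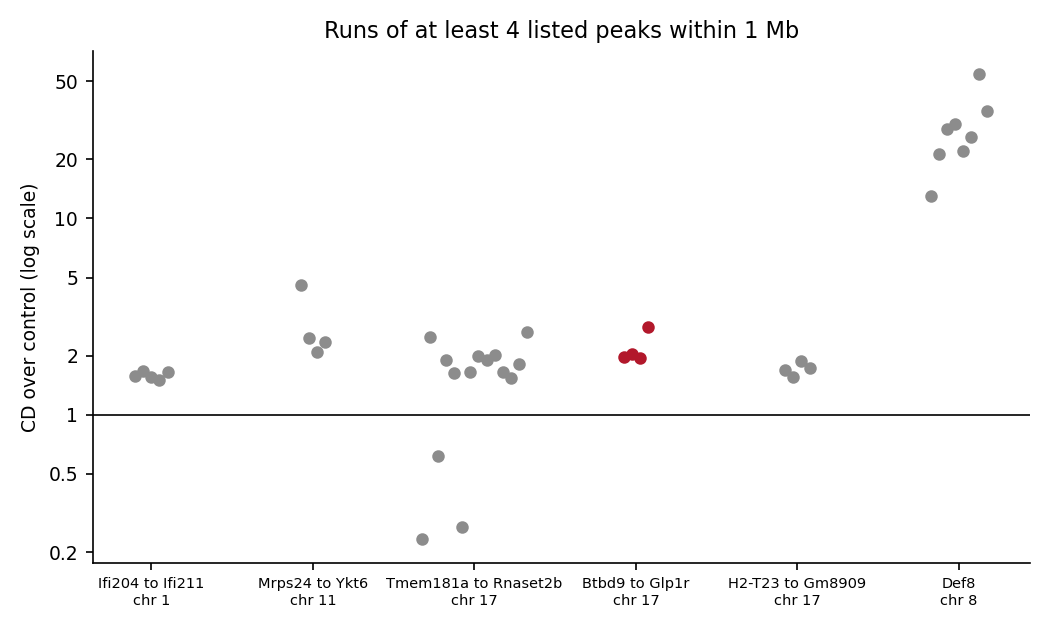
CD over control (vertical, log scale) of every peak in the 6 runs of at least 4 listed peaks within 1 Mb, with a line at 1 and peaks in the order of their position. Peaks lower in CD are drawn as 1 divided by their listed size, and 1 value above 100 at Def8 is left out. The 4 red points of the Glo1 segment, from 1.95 to 2.81, are all above 1.

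Lists of genes related to the 4 held no further listed peak at their starts, which at their size is close to the background, since 44 of 21866 protein-coding genes (0.201%) had one within 1 kb and 73 (0.334%) within 10 kb. Nothing about these genes is read from it. Among 16 genes that handle methylglyoxal or glutathione, such as Hagh, the glyoxalase that acts after Glo1, and Gclc, which makes the precursor of glutathione, only Glo1 had a listed peak within 1 kb of a protein-coding start. Among 16 genes of incretin and glucagon signalling, including the receptors Gipr and Gcgr and the hormone gene Gcg, only Glp1r had one. Among 15 axonemal dynein heavy chains none had one within 1 kb, and only Dnah8 had one within 10 kb. Among 13 genes of the Btbd family and Cul3 only Btbd9 had one. Of 18 ovary genes, such as Foxl2 and Amh of granulosa cells and Zp3 and Gdf9 of the oocyte, 0 had a listed peak within 10 kb. Since the list holds only changed peaks, this does not check the tissue, whose defining markers cannot be read from it.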

How the data were processed

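H3K4me3 ChIP-seq of 2 CD and 2 control ovary samples was analysed. The authors aligned 50-bp reads against mm10 (Bowtie 1.0.0), used MACS2 2.1.1 to call peaks and compared the groups with limma, keeping peaks past a fold of 1.5 and a false discovery rate of 0.1. The deposited value of each peak is a score, the authors' signed fold of CD over control. How reads were normalized is not given in the sources used here, and neither depth nor precision per sample can be given. Values above 100 in either direction (3 peaks) were set aside in the comparison of runs and in the plots, and kept in the counts and medians over the whole list.

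Peaks were placed on GENCODE M21 and the GRCm38 sequence. Starts count as near a peak within 1 kb of its edge. Every 50-mer was looked up on both strands of 66 assembly sequences with Python 3.11.15, NumPy 2.4.6 and Numba 0.67.0. These were the chromosomes and the unplaced and unlocalized contigs, and patches and alternate loci were left out. The search was tested on simulated data. Figures used Matplotlib 3.10.9. All genes with a start in the segment, the nearest listed peaks and other runs were eligible to be named. The members and gene lists were chosen with earlier results of these data known. No test between the groups was possible.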

Additional observations from a re-analysis of the deposited data

How the results depend on the processing

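For 4 results, 13 alternatives were run. The segment held 4 listed peaks, also with both borders 500 kb or 2 Mb farther out, 3 with both borders 100 kb farther in, and 2 when only peaks with an absolute fold of at least 2 were kept, which removes Btbd9 and Dnah8. The number of genes with a listed peak at a start was 3, also with the start inside the peak or within 5 kb, 2 when only the outermost start of each gene was counted, which drops Glo1, whose outermost start lies 14.21 kb upstream of the start in its peak, and 5 when genes of any type and starts of any transcript were counted, which adds AC165962.1 and, through the incomplete transcript, Dnah8. The share of the peaks' sequence found elsewhere was 0.661% for 50-mers, 1.15% for 36-mers, 0% for 100-mers and 2.17% with 250 bp added on both sides. The ratio of the highest to the lowest fold was 1.44, 1.42 over the peaks within 1 kb of a protein-coding start and 1.05 without the Glp1r peak. No paired analysis was possible because the list holds no value for a single sample. For the same reason no replicate could be left out. Depth limits every fold here to an unknown degree.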
